A study of Mus musculus with 8 samples.

Results

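Aminoacyl-tRNA synthetases are the enzymes that load each tRNA with its amino acid, and their genes were followed here in mouse regulatory T cells (Treg) with and without an intact Pdpk1 gene. The 36 genes were taken from a fixed list of 20 cytosolic and 16 mitochondrial synthetases by symbol. All 36 were among the 19826 genes of the deposited table, and all 36 were among the 13847 genes that had a normalized count of 10 or more in at least 4 of the 8 libraries and were therefore tested. The list was set by gene name, but with earlier results of these data known.

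The cells were CD4+ YFP+ Treg of untreated C57BL/6 mice, sorted straight after spleen and peripheral lymph nodes were removed. The 4 WT libraries came from Foxp3 YFP-Cre/+ Pdpk1 +/+ mice and the other 4 from Foxp3 YFP-Cre/+ Pdpk1 FL/FL mice. In both groups YFP and Cre recombinase are thus made from 1 modified Foxp3 allele beside an unmodified one, so Cre acts only in Foxp3-expressing cells that use the modified X chromosome. Pdpk1 encodes PDK1, the kinase that activates AKT and related kinases below PI3K. The labels give no ages and do not say whether a library is 1 mouse or a pool, so p-values here reflect only how far libraries of a group differed, which may be technical.

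Every tRNA must be charged with the matching amino acid before the ribosome can use it. Most amino acids have a synthetase gene for the cytosol and a separate nuclear gene whose product is imported into mitochondria. Gars and Kars serve both compartments from 1 gene, Eprs joins glutamate and proline activities in 1 protein, and Farsa and Farsb are the subunits of the cytosolic phenylalanine enzyme. Several cytosolic synthetases (of Dars, Eprs, Iars, Kars, Lars, Mars1, Qars and Rars) sit with the scaffold proteins Aimp1, Aimp2 and Eef1e1 in the multisynthetase complex. The stress-induced transcription factor ATF4 is known to raise many cytosolic synthetase genes when amino acids run short, and interferon gamma is known to raise Wars.

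Depth came to between 17448095 and 26299577 recovered reads per library. All 8 Treg and T cell markers listed were well detected in every library, and their summed normalized count was 79949 to 94993 in WT and 71782 to 80418 in the other group. Of these 8, Il2ra rose (log2 change 0.63), Trac and Ikzf2 fell (by 0.68 and 1.13 on the log2 scale), and Foxp3, Cd4, Cd3e, Cd3g and Ctla4 were not past the threshold in limma, though DESeq2 called Cd4, Cd3e and Cd3g lower. Pdpk1 counted over the whole gene had normalized counts of 2599.6, 2374, 1995 and 1923 in WT replicates 1 to 4 and 2505, 1900.1, 1872 and 1656 in those labelled Pdpk1 KO (log2 change -0.17, exact two-sided permutation p = 0.286). Because reads over the whole gene were counted and not the deleted exons alone, that value does not check the labels. Macrophage markers were uneven: the summed normalized count of 19 markers was 1582 to 3082 in WT and 2127 to 6931 in the group labelled Pdpk1 KO, with 8 of 16 tested markers higher and Axl lower. Axl alone had 941 to 1296 normalized counts in WT and 404 to 796 in the other group, so these sums hide part of the difference. Of the 16 tested markers, 15 had a log2 change above 0, and the median was 2.05. The mean log2 level of the macrophage markers was highest in WT replicate 2 and in replicates 2 and 3 labelled Pdpk1 KO. For 6 B cell markers the summed count was 5655 to 9421 in WT and 6056 to 7267 in the other group, most of it Ighm, with Cd79b lower and the defining gene Ms4a1 at 0 in 6 libraries. The CD8 T cell markers Cd8a and Cd8b1 summed to 268 to 512 and 365 to 528. Cd8a, at most 55.9, was higher in every library labelled Pdpk1 KO than in any WT library but not past the threshold (log2 change 1.47, adjusted p = 0.195). Summed levels were 12.3 to 45.1 and 2.25 to 93.1 for 3 NK cell markers, and 6.76 to 97.5 and 8.77 to 41.9 for 4 dendritic cell markers. They were 9.38 to 145 and 6.83 to 237 for 4 erythroid markers, and the neutrophil gene S100a9 was at 0 in 7 libraries. The part of other cells in the synthetase values was not tested beyond the macrophage alternatives given at the end.

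As a set, the synthetase genes stood slightly higher in the libraries labelled Pdpk1 KO, and few single genes passed the test. Of 36 genes, 31 had a log2 change above 0 and 5 below it, where 49.1% of all genes tested were above 0. The median change was 0.17 on the log2 scale for the 20 cytosolic genes and 0.14 for the 16 mitochondrial ones, beside -0.01 for all genes tested. There 4 genes rose (Wars, Vars, Mars1 and Tars2) and 1 fell (Cars2), together 13.9% of the members at a limma adjusted p under 0.05, where 9.47% of all genes tested were called. That share is near the background. On the recovered reads, edgeR called 5 members (9.06% of all genes tested) and DESeq2 called 7 (12.7% of all genes). The 2 groups did not overlap for 11 of the 36 genes (30.6%), against 15.3% of all genes tested. Of these, 9 lay higher (7.06% of all genes did) and 2 lower (8.24%). Among the 8471 genes with a mean normalized count of at least 200, a level that all members reach, 52.8% were above 0, 11.6% were called and 17.6% did not overlap.

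**Figure D1:**
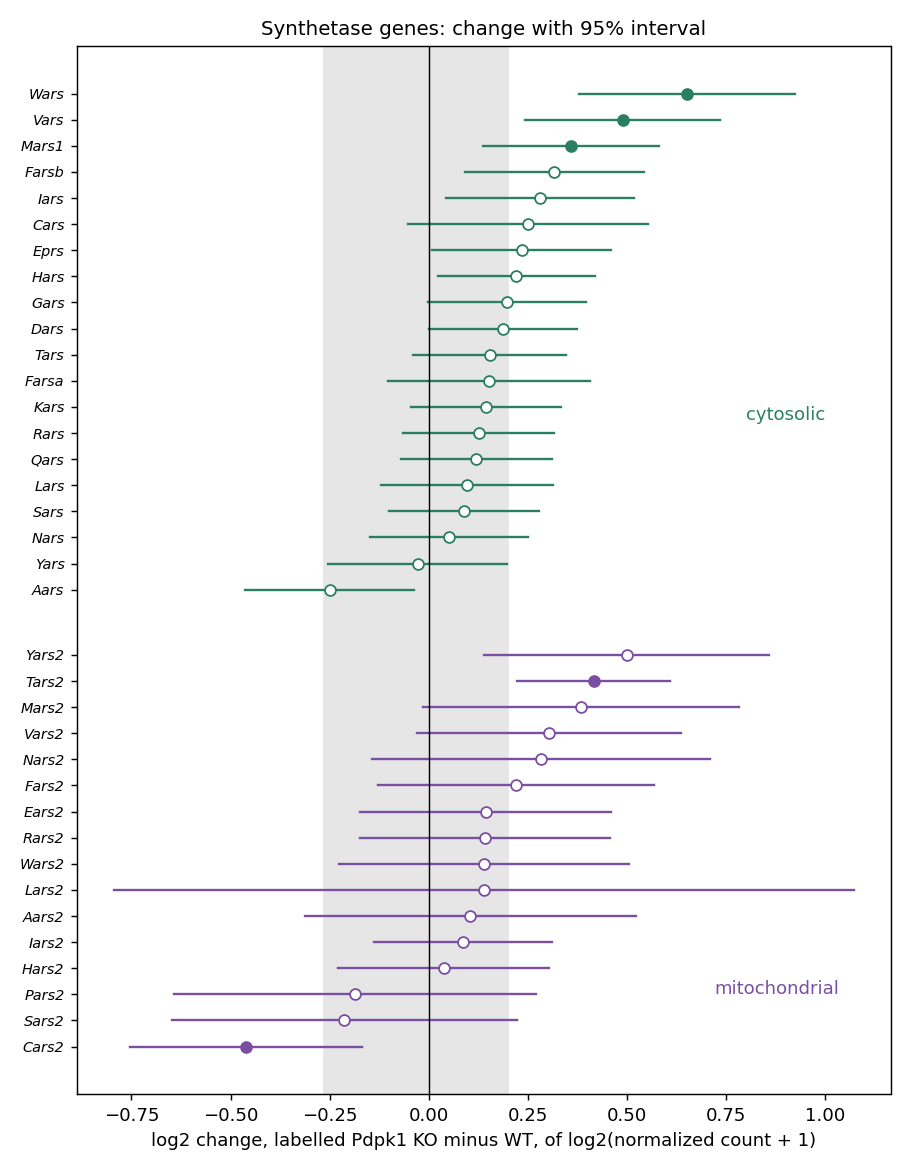
Log2 change (labelled Pdpk1 KO minus WT, of log2(normalized count + 1)) of each synthetase gene, cytosolic above and mitochondrial below, with its 95% interval from the limma fit (n = 4 libraries per group). Filled points have an adjusted p under 0.05, and the grey band spans the middle of all genes tested, from -0.26 (lower quartile) to 0.20 (upper quartile). Most points lie right of 0 with intervals that cross it, and Cars2 lies farthest left at -0.46.

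Among the cytosolic genes, 3 of 20 rose (4.41% of all genes tested were called higher) and 0 fell (5.06% of all genes), with 17 not past the threshold in limma. The cytosolic genes with an unadjusted p under 0.05 numbered 9, and edgeR called 3 and DESeq2 4 in either direction. No share of all genes at that unadjusted cutoff is given here, so this count and later ones like it have no background. Wars, the tryptophanyl-tRNA synthetase gene (GRCm38 chr12:108860030-108894174, minus strand), had normalized counts of 2205, 1472, 2161 and 2081 in WT replicates 1 to 4. In replicates 1 to 4 labelled Pdpk1 KO it had 3539.9, 3051, 2947 and 2794. Every library labelled Pdpk1 KO was above every WT library, and WT replicate 2 stood apart below the other WT libraries. The log2 change was 0.65 ± 0.13 (SE, n = 4 per group, limma adjusted p = 0.00406), a 1.57-fold difference on the log2(normalized count + 1) scale. It remained past the threshold whichever single library was left out (adjusted p from 0.00333 to 0.0126) and was 0.95 with the macrophage marker mean as a covariate (adjusted p = 0.00167).

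Vars, the valyl-tRNA synthetase gene (chr17:35000987-35016322, plus strand), had normalized counts of 5133, 4458, 4112 and 3748 in WT and 7279.9, 6153, 5482 and 5585 in those labelled Pdpk1 KO. The groups did not overlap, although WT replicate 1 and replicate 3 labelled Pdpk1 KO were close. Its log2 change came to 0.49 ± 0.12 (SE, n = 4 per group, limma adjusted p = 0.0134). Without WT replicate 4, the lowest library, it was 0.42 and not past the threshold (adjusted p = 0.0552). Valyl-tRNA synthetase binds the elongation factor eEF1, the complex that carries charged tRNA to the ribosome.

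Mars1 (chr10:127296221-127311786, minus strand), which charges the methionine tRNAs of the cytosol, had normalized counts of 1199, 1149.7, 1174 and 985 in WT and 1599.5, 1442, 1346 and 1390.2 in those labelled Pdpk1 KO. The 4 values of each group lay apart from those of the other. The log2 change was 0.36 ± 0.10 (SE, n = 4 per group, limma adjusted p = 0.0414), close to the threshold. The call held only when WT replicate 1 was the library left out. Without any other single library (WT replicate 2, 3 or 4, or any replicate labelled Pdpk1 KO) the adjusted p was between 0.0574 and 0.134. Mars1 shares 68 exon bases with Ddit3 on the opposite strand, 1.99% of its exon length. Ddit3, a stress gene that ATF4 raises, had a log2 change of -0.10 (adjusted p = 0.79).

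**Figure D2:**
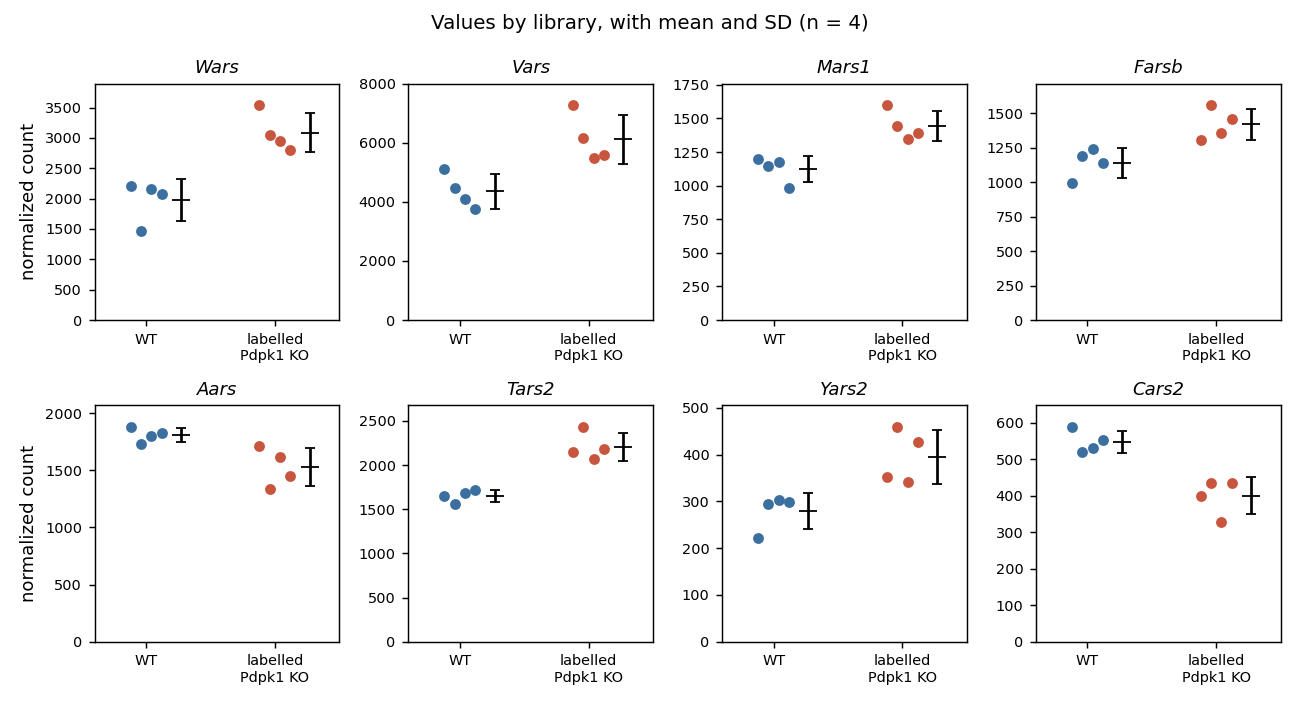
Normalized counts in each library (points) with the group mean and SD (bars, n = 4 per group) for 8 synthetase genes, axes from 0. All 8 genes shown are among the 11 of 36 members whose groups did not overlap (30.6%, against 15.3% of all genes tested). Iars, Cars, Mars2 and Vars2, whose groups overlapped, are not shown. In these panels 6 genes stand higher and Aars and Cars2 lower in the libraries labelled Pdpk1 KO, of which Farsb, Aars and Yars2 were not past the threshold.

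The other 17 cytosolic genes were not past the threshold, with log2 changes from -0.25 to 0.32. Farsb, the beta subunit gene of the phenylalanine enzyme, had normalized counts of 993, 1189, 1243 and 1136 in WT and 1303, 1558, 1358 and 1454 in those labelled Pdpk1 KO. These groups did not overlap, and the log2 change was 0.32 ± 0.11 (SE, limma adjusted p = 0.0777, DESeq2 adjusted p = 0.0476). Farsb shares 248 exon bases, 9.47% of its length, with Sgpp2 on the opposite strand. Its partner subunit gene Farsa was at 0.15 (adjusted p = 0.501), with replicate 3 labelled Pdpk1 KO below all WT libraries at 1149.7.

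Iars, the isoleucine enzyme gene, had normalized counts of 1752, 1602, 1454 and 1302 in WT and 1992, 1667, 2004 and 1742 in those labelled Pdpk1 KO. The ranges overlapped, and the log2 change was 0.28 ± 0.11 (SE, adjusted p = 0.139). Cars, for cysteine, had 435, 608, 589 and 449.7 in WT and 601, 583, 589 and 682 in the other group. Here 2 WT libraries lay within the range of the libraries labelled Pdpk1 KO, and the log2 change was 0.25 ± 0.14 (SE, adjusted p = 0.324).

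Aars, the alanyl-tRNA synthetase gene, had the lowest cytosolic change. Its normalized counts were 1880.4, 1727, 1802 and 1828 in WT and 1712, 1332, 1616 and 1451 in those labelled Pdpk1 KO. All 4 of the latter lay below all WT libraries, and the gap between replicate 1 labelled Pdpk1 KO and WT replicate 2 was small. The log2 change was -0.25 ± 0.10 (SE, 95% interval -0.46 to -0.04, adjusted p = 0.145). Aars shares 1326 exon bases, 14.3% of its exon length, with Exosc6 on the same strand, which was not analysed here, so its count is less certain. Besides Aars, Yars (tyrosine) was the cytosolic gene below 0, at -0.03 (adjusted p = 0.911, 95% interval -0.25 to 0.20).

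The 8 synthetases of the multisynthetase complex were all above 0, from 0.10 for Lars to 0.36 for Mars1, with a median of 0.17. The bifunctional gene Eprs was at 0.23 (adjusted p = 0.198), Dars (aspartate) at 0.19, Kars (lysine) at 0.14, Rars (arginine) at 0.13 and Qars (glutamine) at 0.12. The 12 cytosolic synthetases outside the complex had a median of 0.18 and a wider range, from -0.25 to 0.65. Of these, Hars (histidine) was at 0.22, Gars (glycine) at 0.20, Tars (threonine) at 0.15, Sars (serine) at 0.09 and Nars (asparagine) at 0.05, the last at -0.01 after quantile normalization.

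Synthetases fall into 2 structural classes that share no fold. Class I held 9 of the cytosolic genes, with a median log2 change of 0.25. Of these 9, Wars, Vars and Mars1 were called (33.3%, beside 9.47% of all genes tested). Class II held 10, none past the threshold in limma or edgeR (4 had an unadjusted p under 0.05 in limma, and DESeq2 called 1), with a median of 0.15. In class I also 4 had an unadjusted p under 0.05. The groups did not overlap for 33.3% of class I and 50% of class II genes, against 15.3% of all genes tested. Eprs has a domain of each class and was counted in neither. Calls in the mitochondrial classes differed from the cytosolic ones: of 9 class I genes 0 rose and 1 fell (Cars2), and of 7 class II genes 1 rose (Tars2). Their medians were 0.14 and 0.10.

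The libraries did not contribute evenly to the cytosolic pattern. WT replicate 4 held the lowest value of 11 of the 20 cytosolic genes, and replicate 1 labelled Pdpk1 KO the highest of 7. Without WT replicate 4 the cytosolic median was 0.15 and 1 of the 20 genes (Wars) was called. The summed cytosolic synthetase reads per 10000 recovered reads were 22.0, 19.5, 19.9 and 19.1 in WT and 24.1, 20.8, 20.9 and 20.8 in those labelled Pdpk1 KO. These shares overlapped, with WT replicate 1 above 3 of the 4 libraries of the other group.

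**Figure D3:**
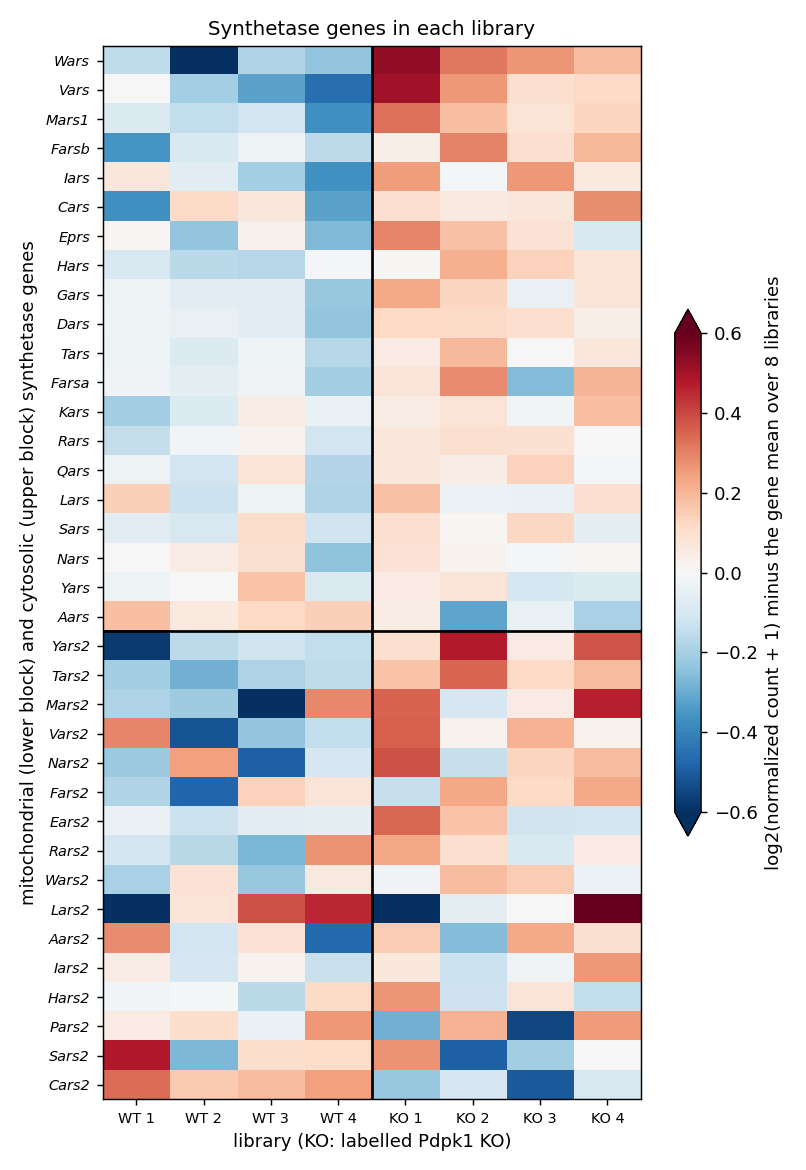
Each row is a synthetase gene (cytosolic above the line, mitochondrial below) and each column a library; color gives log2(normalized count + 1) minus the gene's mean over the 8 libraries, limited to ±0.6. The upper right block is mostly red and the WT replicate 4 column mostly blue among the cytosolic genes, while the mitochondrial rows are more mixed and Lars2 shows the widest range.

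Among the mitochondrial genes, 1 of 16 rose and 1 fell (12.5%, beside the 9.47% of all genes), and 14 were not past the threshold. Tars2, the mitochondrial threonyl-tRNA synthetase gene (chr3:95739976-95760206, minus strand), had normalized counts of 1652, 1561, 1679 and 1716 in WT and 2148, 2433, 2073 and 2177 in those labelled Pdpk1 KO. The 2 groups were far apart for the spread within each. Tars2 had a log2 change of 0.42 ± 0.09 (SE, n = 4 per group, limma adjusted p = 0.00833) and remained past the threshold whichever single library was left out (adjusted p from 0.0139 to 0.0315). With the macrophage marker covariate the change was again 0.42, with an adjusted p of 0.109.

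Cars2, the mitochondrial cysteinyl-tRNA synthetase gene (chr8:11513977-11550783, minus strand), was the member that fell. Its normalized counts were 588, 520.1, 530.3 and 553 in WT and 398, 435, 329 and 436 in those labelled Pdpk1 KO. No library of the latter group reached a WT value. The log2 change was -0.46 ± 0.14 (SE, n = 4 per group, limma adjusted p = 0.0464). Leaving out any single library except replicate 4 labelled Pdpk1 KO (that is, any WT replicate or replicate 1, 2 or 3 labelled Pdpk1 KO) gave an adjusted p between 0.0558 and 0.136. It was -0.36 with the macrophage marker covariate (adjusted p = 0.412). Cars2 shares 422 exon bases, 5.83% of its length, with Naxd on the opposite strand, which was at -0.04 (adjusted p = 0.897).

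Of the 14 mitochondrial genes not past the threshold, Yars2 (tyrosine) had the highest change. Its normalized counts were 221, 295, 303 and 298 in WT and 352, 459, 341 and 428 in those labelled Pdpk1 KO. Those groups did not overlap, and the log2 change of 0.50 ± 0.17 (SE) had a limma adjusted p of 0.0795 and a DESeq2 adjusted p of 0.0442. Mars2 (methionine) had 485, 475, 348 and 672 in WT and 703, 513, 570.3 and 762 in the other group. WT replicate 4 lay inside the range of the libraries labelled Pdpk1 KO, and the log2 change was 0.38 ± 0.19 (SE, adjusted p = 0.237).

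Vars2 (valine) had normalized counts of 947, 539.9, 656 and 699 in WT and 993, 785, 893 and 784 in those labelled Pdpk1 KO. WT replicate 1 stood with the upper group, and the log2 change was 0.30 ± 0.16 (SE, adjusted p = 0.268). The remaining genes had smaller changes: Nars2 (asparagine) was at 0.28, Fars2 (phenylalanine) at 0.22, Ears2 (glutamate), Rars2 (arginine) and Wars2 (tryptophan) at 0.14 each, Aars2 (alanine) at 0.10, Iars2 (isoleucine) at 0.09 and Hars2 (histidine) at 0.04. Hars2 and Hars start next to each other on opposite strands and share 195 exon bases, and Iars2 shares 2034 with Rab3gap2 and Fars2 501 with Nrn1, so their counts are less certain. Pars2 (proline) and Sars2 (serine) were at -0.19 and -0.21. Direction was not stable for 5 of these 14 genes. Aars2 changed sign without WT replicate 4, Hars2 without WT replicate 3 or replicate 1 labelled Pdpk1 KO, Sars2 and Wars2 with the macrophage marker covariate, and Lars2 in the ways given next.

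Lars2, the mitochondrial leucyl-tRNA synthetase gene, varied far more between libraries than any other member. It had normalized counts of 5437, 13128, 16205 and 16975 in WT and 5426, 11943, 12428 and 35847 in those labelled Pdpk1 KO. Replicate 1 of each group was lowest and replicate 4 labelled Pdpk1 KO was highest, 6.61 times the lowest library. Between groups the log2 change was 0.14 ± 0.44 (SE, adjusted p = 0.894), and it was -0.35 without replicate 4 labelled Pdpk1 KO and -0.24 without WT replicate 1. Transcripts chosen after these values were seen moved in a similar order. The mitochondrial 16S ribosomal RNA mt-Rnr2 had 15206, 16802, 25913 and 29155 normalized counts in WT and 16725, 23193, 25548 and 38532 in the other group. Gm15564, an antisense transcript annotated on chromosome 16, had 39.5, 79.2, 170.3 and 179 in WT and 36.3, 99.7, 115 and 375 in those labelled Pdpk1 KO. The part of such transcripts in the Lars2 count was not tested.

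**Figure D4:**
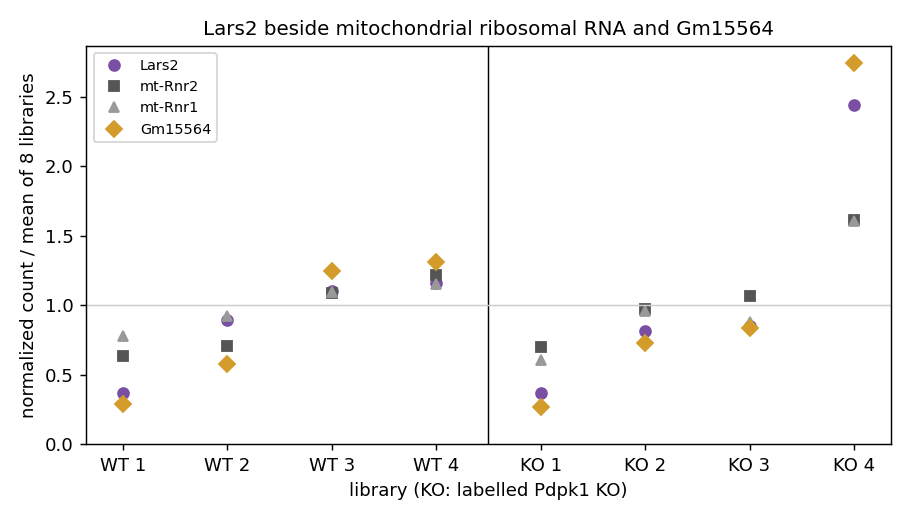
Normalized counts of Lars2, mt-Rnr2, mt-Rnr1 and Gm15564 in each library, each divided by its own mean over the 8 libraries. All 4 are highest in replicate 4 labelled Pdpk1 KO and low in replicate 1 of both groups; the highest library is 6.61 times the lowest for Lars2, 2.53 for mt-Rnr2, 2.63 for mt-Rnr1 and 10.3 for Gm15564.

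On average Lars2 made up most of the summed level of the mitochondrial set. With it, the mitochondrial synthetase reads per 10000 recovered reads were 10.2 ± 2.28 in WT and 11.5 ± 5.95 in those labelled Pdpk1 KO (SD, n = 4 each). Without it they were 4.01 ± 0.377 and 4.20 ± 0.308. The difference was smaller than the SD of either group in both versions. For the cytosolic set the shares were 20.2 ± 1.31 and 21.6 ± 1.62.

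Levels between genes were compared as normalized counts per kilobase of exon, over all annotated exons of a gene. In WT the median was 437.2 for the cytosolic genes and 82.2 for the mitochondrial ones. The cytosolic range ran from 79.1 for Cars to 799.4 for Kars, and Vars became the highest in the libraries labelled Pdpk1 KO at 1092.2. The mitochondrial range ran from 30.7 for Nars2 to 238.3 for Tars2, with the WT mean of Lars2 above every other member at 1166.6. Kars, Vars and Sars, at 799.4, 778.0 and 763.1 in WT, followed each other within the spread of their libraries. Below Tars2 in WT came Hars2, Rars2 and Iars2, at 174.4, 162.5 and 160.4, also within their spread.

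**Figure D5:**
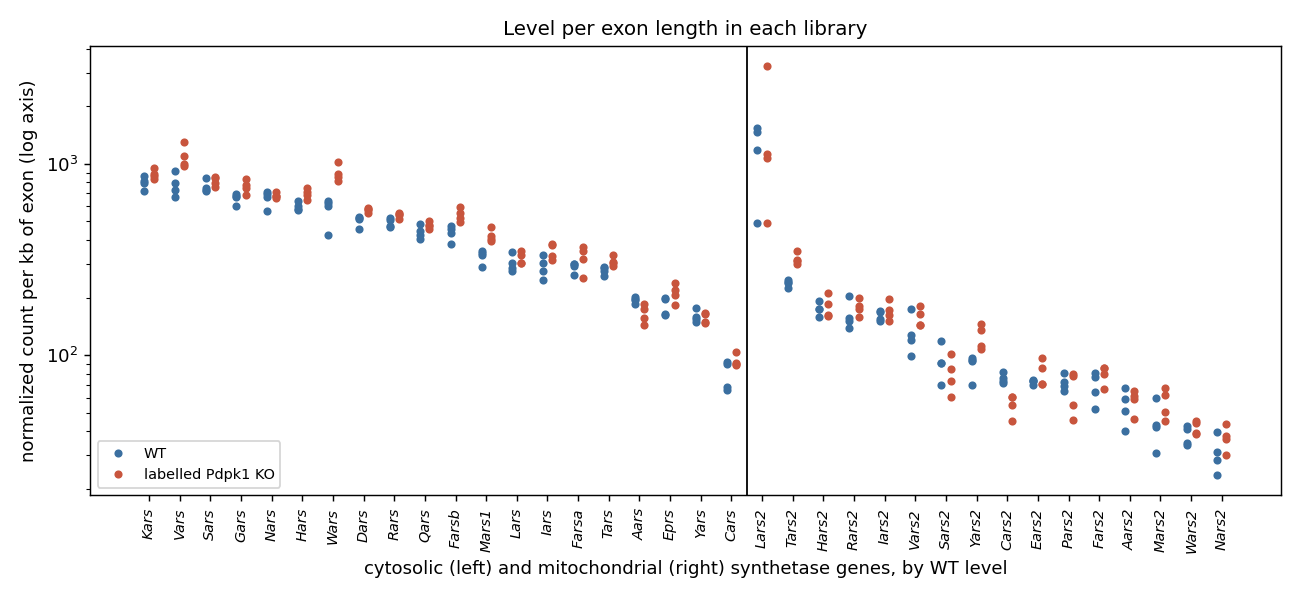
Normalized count per kilobase of exon (log axis) in each library for every synthetase gene, ordered by WT level within the cytosolic (left) and mitochondrial (right) sets. Most mitochondrial genes lie below most cytosolic ones, with Lars2 the exception and the gene with the widest spread.

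The cytosolic and mitochondrial genes for 1 amino acid did not always have similar log2 changes, but no pair was past the threshold. For each of 17 such pairs the log2 ratio of the cytosolic to the mitochondrial gene was compared between groups by an exact two-sided permutation test, which cannot give a p below 0.0286 with 4 libraries against 4. Adjusted over the 17 pairs, none was past 0.05, and 4 pairs reached the smallest possible p, with an adjusted p of 0.121. An adjusted p under 0.05 would have needed most of the 17 pairs at that smallest p, so this test could hardly have called any. The ratio of Cars to Cars2 was higher in the libraries labelled Pdpk1 KO by 0.71 ± 0.18 on the log2 scale (SE), going from 1.04 to 1.69 per kilobase. That of Wars to Wars2 was higher by 0.51 ± 0.23 and went from a mean log2 ratio of 3.11 to 3.62. The ratio of Yars to Yars2 had a log2 difference of -0.53 ± 0.14 and that of Tars to Tars2 of -0.26 ± 0.05. In these 4 pairs the ratios of the groups did not overlap, which is the same fact as the smallest possible p and adds nothing to it. Mars1 and Mars2, by contrast, had nearly equal changes of 0.36 and 0.38, and their ratio differed by -0.03 ± 0.28.

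Promoter sequences are shown because 2 factors linked to synthetase genes read short known motifs. ATF4 with C/EBP partners binds TGATGNAA, and Myc binds CACGTG. Both strands were searched in the RefSeq windows of GRCm38.p6, which run from 250 bases before to 50 after a gene's start. The 2 motifs do not overlap in the windows printed here. A window was found for 27 of the 36 genes (28 windows). TGATGNAA stood in 5 of the 28 (17.9%), in Aars, Gars, Iars, Tars and Yars, against 3.97% of all 32851 windows of that length. CACGTG also stood in 5 (17.9%), in Aars, Ears2, Farsb, Iars and Tars, against 7.15% of all windows. Among the called genes, Mars1, Tars2 and Cars2 had a window and neither motif was in it. The stretches before the start that hold a motif follow 5′ to 3′ on the gene's strand, with the matched bases in capitals. TGATGNAA matched in reverse orientation in Aars, Gars and Tars, and matches at or after the start (in Aars, Ears2, Iars, Tars and Yars) are not printed.
Aars (chr8:111033666-111033767, plus strand): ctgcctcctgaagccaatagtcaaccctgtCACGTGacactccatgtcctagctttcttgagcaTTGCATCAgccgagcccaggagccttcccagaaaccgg
Gars (chr6:55037941-55038000, plus strand): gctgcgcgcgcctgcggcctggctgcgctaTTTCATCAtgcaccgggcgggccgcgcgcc
Tars (chr15:11399659-11399703, minus strand): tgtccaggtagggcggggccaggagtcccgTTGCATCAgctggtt
Iars (chr13:49682031-49682096, plus strand): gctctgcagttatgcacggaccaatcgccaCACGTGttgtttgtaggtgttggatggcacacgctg
Farsb (chr1:78488901-78488966, minus strand): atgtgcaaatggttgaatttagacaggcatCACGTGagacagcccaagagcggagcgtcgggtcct
The 5 genes with TGATGNAA had log2 changes of -0.25 (Aars), 0.20 (Gars), 0.28 (Iars), 0.15 (Tars) and -0.03 (Yars), none past the threshold in limma, edgeR or DESeq2 (Aars and Iars had an unadjusted p under 0.05). A match is a description of letters and not evidence that a factor binds there.

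Other genes of tRNA charging were read from lists chosen by function. The counts of called genes in these lists stand beside 9.47% of all genes tested called by limma (4.41% higher). Of the 3 complex scaffolds, Eef1e1 rose, from 600.4 ± 38.2 to 854 ± 70.7 normalized counts (log2 change 0.51, adjusted p = 0.0101), while Aimp1 (0.20) and Aimp2 (0.34) did not pass. Of 4 genes of the elongation factor eEF1, Eef1b2 and Eef1g rose by log2 changes of 0.67 and 0.57, and Eef1d was not past the threshold at 0.21. Eef1a1, at 0.45 with groups that did not overlap, was not past it in limma (adjusted p = 0.14) but was called higher by edgeR (adjusted p = 0.0181) and DESeq2 (adjusted p = 6.95e-06). Eef1b2 and Eef1g encode subunits of the eEF1 exchange complex. Among further genes of mitochondrial charging and delivery, Gatc rose at 0.54 (adjusted p = 0.0229). Its product belongs to the amidotransferase that makes mitochondrial glutaminyl-tRNA. Qrsl1, Gatb, Mtfmt, Trnt1, Tufm and Tsfm were not past the threshold.

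Of 8 editing, recycling and synthetase-like genes, 0 were called by limma, edgeR or DESeq2, and 0 had an unadjusted p under 0.05. The most abundant, Dtd1, whose product removes wrongly attached D-amino acids from tRNA, was at 595 ± 89.1 and 671 ± 67.7 normalized counts (log2 change 0.18, adjusted p = 0.483). Of 8 tRNA export and processing genes, Trmt1, which methylates a guanosine of many tRNAs, rose from 1527 ± 158 to 2436 ± 118 (log2 change 0.68, adjusted p = 0.000397), and the other 7 were not past the threshold.

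Genes that sense uncharged tRNA or belong to the ATF4 response were mixed. Of 22 listed, 18 were tested, 4 rose, 2 fell and 12 were not past the threshold in limma. The share called was 33.3%, beside 9.47% of all genes tested. Atf4 itself was at 0.21 (limma adjusted p = 0.182). Trib3, a pseudokinase gene raised by ATF4, went from 89.7 ± 18.6 to 509 ± 53.2 normalized counts (SD, n = 4 each), a log2 change of 2.51. Shmt2, a mitochondrial serine enzyme gene, and Slc7a5, of the leucine transporter, rose by log2 changes of 0.76 and 0.55. Gcn1l1, whose product helps the sensor kinase Eif2ak4 respond to uncharged tRNA, rose by 0.42 (limma adjusted p = 0.0478), and Eif2ak4 itself was at 0.32 (adjusted p = 0.368). The groups overlapped for Gcn1l1, and edgeR did not call it (adjusted p = 0.0527). Mthfd2 and Ddit4 fell by 0.45 and 0.74 on the log2 scale. For Ddit4 the groups overlapped (limma adjusted p = 0.0419), and DESeq2 did not call it (adjusted p = 0.0914). Slc7a1, at 0.34 with groups that did not overlap, was called by DESeq2 (adjusted p = 0.0246) but not by limma (adjusted p = 0.0584). Asns, the asparagine synthetase gene and a common reporter of ATF4, stood at 40.5 ± 20.4 and 27.4 ± 14.2 normalized counts, with no call (adjusted p = 0.555).

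Fewer synthetase genes were called in both macrophage alternatives, and so were fewer of all genes (611 higher and 700 lower in the main fit). The marker mean ran from 4.01 to 6.79 in WT and from 6.04 to 8.13 in those labelled Pdpk1 KO. The covariate is thus partly confounded with the group. With the marker mean as a covariate, 2 of the 5 members were called (Wars and Vars), while 207 of all genes were higher and 280 lower. Without WT replicate 2 and replicates 2 and 3 labelled Pdpk1 KO, 0 of the 36 members were past the threshold in limma, and 3 cytosolic and 5 mitochondrial genes had an unadjusted p under 0.05 (all genes: 167 higher and 305 lower). The changes of the called genes in those 5 remaining libraries were 0.55 for Wars, 0.57 for Vars, 0.42 for Mars1, 0.36 for Tars2 and -0.42 for Cars2, with adjusted p from 0.0647 to 0.296. The cytosolic median was 0.18 both with the covariate and without the 3 libraries, and the mitochondrial median was 0.24 and 0.17.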

How the data were processed

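The authors deposited a table of signal values, which by its name and its values are reads per gene scaled by DESeq2 size factors. In the submitters' processing notes stand GRCm38, DESeq2 1.21, STAR 2.7.6a, Trimmomatic 0.39, Subread 2.0.1 with featureCounts, and SAMtools 1.11, without roles. No strand setting or annotation release is named there, and a read shared by genes on opposite strands may have gone to either. Dividing each library by its smallest value above 0 gave whole numbers for 100% of values (tolerance 0.001), and these served as recovered reads. Symbols matched for 19775 of 19826 genes in GENCODE M21, which names Mars1 as Mars, and exon lengths come from the same annotation. Promoters are RefSeq's.

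Log2(normalized count + 1) was compared over all 13847 genes with limma 3.58.1 in R 4.3.3 (eBayes with trend, two-sided, Benjamini-Hochberg adjustment over all genes, threshold 0.05). Log2 changes and folds are on that scale. Alternatives used edgeR 4.0.16 and DESeq2 1.42.0 on the recovered reads, other pseudocounts and filters, quantile normalization, a macrophage covariate, a replicate block and each library left out. All 3 tests were tested on simulated data. Library depth limits single values by counting error only.

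Named genes were Pdpk1 and all 36 members, with values by library for those past the threshold and for the 3 of each set with the highest absolute change among the rest. Aars was added after its values were seen. Of each other list up to 4 called genes were named, or the most abundant where none was, and further list genes named were chosen after their values were seen. The rule would have shown promoters of called genes only. None of the called genes with a window (Mars1, Tars2 and Cars2) held a motif, so those printed were chosen afterwards. Members and lists were chosen with earlier results of these data known.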

Additional observations from a re-analysis of the deposited data

Results flagged for a closer look

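In 2 results a library stood out because it lay far from the other 3 of its group, by Dixon's ratio of the gap to the whole range, above the 95% critical value for 4 samples. Chance flags about 1 in 20 groups, and 72 groups of 4 libraries were looked at. For Wars the ratio was 0.830 in WT, where replicate 2 had 1472 normalized counts and the others 2081 to 2205. Without WT replicate 2 its log2 change was 0.52. For Yars2 the ratio was 0.904 in WT, where replicate 1 had 221 and the others 295 to 303. Without WT replicate 1 its log2 change was 0.39.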

How the results depend on the processing

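Of the 5 called members, Wars and Tars2 were past the threshold without any single library, Vars without any but WT replicate 4, and Mars1 and Cars2 in only 1 of the 8 such fits. Leaving out 1 library at a time gave 389 (WT replicate 4) to 588 higher and 495 to 724 lower genes, 1 to 3 higher and 0 lower cytosolic genes, 1 higher and 0 to 1 lower mitochondrial genes, and medians of 0.15 to 0.20 (cytosolic) and 0.12 to 0.22 (mitochondrial). In these fits some members changed sign: Nars ranged from -0.0199 to 0.0906, Yars from -0.0612 to 0.0236, Aars2 from -0.0335 to 0.217, Hars2 from -0.0449 to 0.0925 and Lars2 from -0.35 to 0.56. No filter, and quantile normalization, each left 0 mitochondrial genes lower, with Nars at -0.0078 in the latter. Without the filter 2 cytosolic genes were higher, since Mars1 was no longer past the threshold (adjusted p = 0.0548). DESeq2 called 2 mitochondrial genes higher. The macrophage covariate gave 207 higher and 280 lower genes, 0 mitochondrial genes in either direction, a mitochondrial median of 0.24, and Lars2 at -0.29, Sars2 at 0.32 and Wars2 at -0.0664. Without the 3 libraries highest in macrophage markers, an alternative chosen after seeing the data, 167 genes were higher and 305 lower, and 0 cytosolic and 0 mitochondrial genes were called in limma. That fit has 5 libraries. For the other changes the cause was not tested.

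Replicate numbers are shared by the groups, but the labels do not say that a number pairs libraries, so the main fit had no block. Correlations of same-numbered libraries (0.217, 0.092, 0.048 and 0.113) were all above 0 but not all above 0.1. WT replicates 1, 2 and 4 each correlated best with the same number, and WT replicate 3 with replicate 2 labelled Pdpk1 KO (0.109). These values do not settle whether the numbers pair libraries. With a replicate block, 1243 genes were higher and 1292 lower, beside 611 and 700 in the main fit. Of the members, 6 cytosolic genes were then higher and 1 lower (Aars), and 3 mitochondrial genes were higher while Cars2 was still lower.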
